A study of Mus musculus with 12 samples.

Results

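Livers of wild-type mice on a high-fat diet were compared with livers of mice lacking a histone deacetylase, with both knockout lines taken as 1 side. The comparison used 9 of the series' 12 arrays, chosen by their labels: 3 of wild-type high-fat liver against 6 of knockout liver, 3 with deletion of HDAC6 and 3 with deletion of HDAC9. The remaining 3 arrays, of wild-type liver on chow, did not enter the fit behind the main calls and are set beside it as a description. They entered a separate fit of all 12 arrays and the choice of 1 probe set per gene. RNA came from whole liver of female C57BL/6 mice aged 8 to 12 weeks, with 100 ng labelled per array. The high-fat diet supplied 60% of energy as fat and the chow 25%. Only the wild-type labels name a diet, so diet and genotype cannot be told apart between the high-fat livers and the knockout livers. The labels name no promoter or Cre driver for either deletion. They number the 3 arrays of a group without saying that each was a separate mouse, so the p-values measure only how far these samples spread, which may be technical.

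The liver takes up dietary and circulating fatty acids, and it clears drugs and other foreign compounds with cytochrome P450 and conjugating enzymes. Many of those enzymes are switched on by the nuclear receptors CAR and PXR, and Cyp2b10 is the most commonly used read-out of CAR in mouse liver. Immediate-early genes such as Jun are transcribed within minutes of growth factor, stress or hormone signals and then shut off. HDAC6 is a mainly cytoplasmic deacetylase known for acting on tubulin, and HDAC9 is a class IIa deacetylase that binds MEF2 transcription factors.

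Levels are given on the log2 scale of the deposited values, where a difference of 1 is a doubling, and a difference is high-fat minus knockouts. The knockout side is the mean of the 2 line means. A gene was called when its adjusted p from limma with the Benjamini-Hochberg method was under 0.05 over all 12393 genes. Array medians lay between 5.80 and 5.86, and the correlation between any pair of the 9 arrays ran from 0.989 to 0.997. Genes of a list not known to be expressed in liver had a median level of 3.55, with a 90th percentile of 5.12, which serves as a guide to background. Hepatocyte genes averaged 12.1 to 12.2 on every array. On HDAC9 knockout replicate 2, 23 exocrine pancreas markers had a median deviation of 3.18 from their mean over the arrays, against -0.65 to 0.01 on all other arrays.

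The deleted genes were read first. Hdac6 had 7.46, 7.97 and 7.80 in high-fat livers, against 6.17, 6.16 and 6.50 in HDAC6 knockouts and 7.96, 7.95 and 8.03 in HDAC9 knockouts. All 3 HDAC6 knockout arrays were low, and the high-fat and HDAC9 knockout arrays overlapped. The high-fat level was 2.76-fold above the HDAC6 knockout level (limma adjusted p = 0.000844). Hdac9 lay between 4.04 and 4.53 on all 9 arrays, a level found among background genes, so it gave no check of the HDAC9 label.

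A small group of genes separated the high-fat livers from both knockouts. Of 12393 genes, 67 were called (0.541%), of which 35 were higher (0.282%) and 32 lower (0.258%) in high-fat liver. The largest difference was a 13.5-fold lower level of Cyp2b10, and the largest rise was a 4.94-fold higher level of Jun. Over 2-fold, 7 genes rose and 11 fell. The median absolute difference of the called genes was 0.79, and the median difference of all genes was 0.01. Over all 12393 genes, 6495 differences were positive and 5898 negative. Counts of called or positive members of any gene list below are to be read beside these numbers and the shares called over all genes. In 615 genes (4.96%) all 3 high-fat arrays lay above or below all 6 knockout arrays, 333 above (2.69%) and 282 below (2.28%). Of the called genes, 66 had this separation (0.533% of all genes), and Gsta2 was the exception.

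The number of called genes depended on single arrays. It was 29, 40 and 31 without high-fat replicate 1, 2 or 3. It was 33 without HDAC6 knockout replicate 2, and 115, 103 and 42 without HDAC9 knockout replicate 1, 2 or 3. Of the 67 calls, 25, 35 and 30 were kept without high-fat replicate 1, 2 or 3, 45, 32 and 50 without HDAC6 knockout replicate 1, 2 or 3, and 64, 61 and 38 without HDAC9 knockout replicate 1, 2 or 3. The call was kept with every array left out in turn for 17 genes: Cyp2b10, Jun, Dusp1, Zfp36, Cd36, Slc22a7, Ces2a, Csad, Dnase2a, Fads2, Gnpda1, Sgk1, Adamdec1, Adgrf1, Cadm4, Unc13b and Zfp810. Of these, Fads2, Cadm4 and Unc13b were not called in the fit of all 12 arrays (limma adjusted p = 0.155, 0.102 and 0.051). Some of the 17 lay near background. Adgrf1 averaged 3.31 in high-fat livers and 2.65 in knockouts, both under the background median of 3.55. The high-fat means of Cadm4, Unc13b and Zfp810, at 4.67, 4.69 and 4.92, lay under the background 90th percentile of 5.12.

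**Figure D1:**
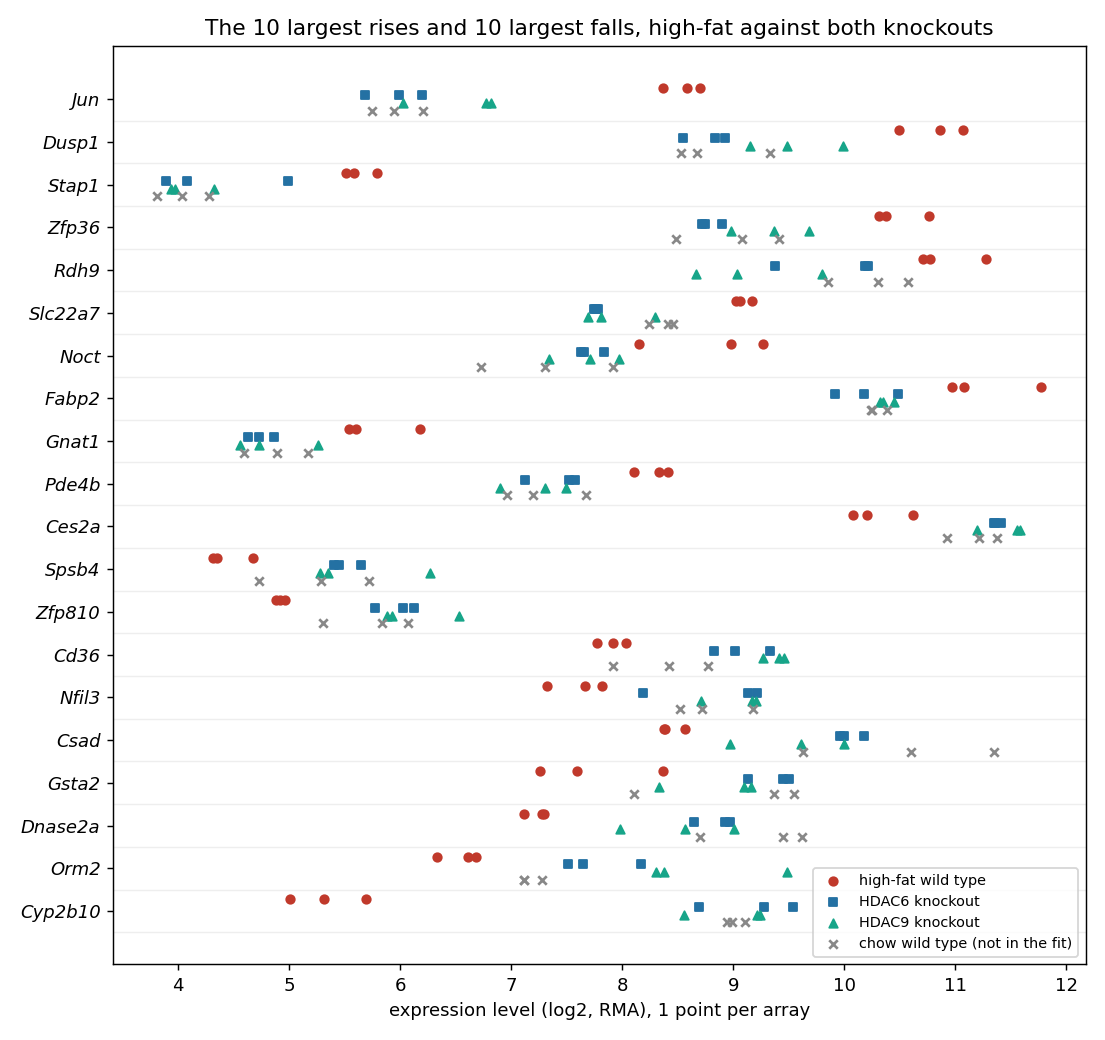
Log2 level of the 10 genes with the largest rises and the 10 with the largest falls among called genes, with 1 point per array. High-fat, HDAC6 knockout and HDAC9 knockout livers are shown, and chow livers, which did not enter the fit behind these calls. Cyp2b10 lay between 5.005 and 5.69 on the high-fat arrays, against 8.56 to 9.54 on the knockout arrays, and Gsta2 had 1 high-fat array above 1 knockout array.

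Immediate-early genes were among the largest rises. Jun, a subunit of the AP-1 transcription factor, had 8.70, 8.59 and 8.37 in high-fat livers, against 6.20, 5.68 and 5.99 in HDAC6 knockouts and 6.77, 6.02 and 6.82 in HDAC9 knockouts. Every high-fat array lay more than 1.5 above the highest knockout array. The difference was 2.30 (SE 0.176, limma adjusted p = 0.000129), and a second Jun probe set gave 1.32. Dusp1, a phosphatase that inactivates MAP kinases, had 10.86, 11.07 and 10.49 in high-fat livers, against 8.93, 8.84 and 8.55 in HDAC6 knockouts and 9.15, 9.49 and 9.99 in HDAC9 knockouts. The groups did not overlap, with the nearest knockout array being HDAC9 replicate 3. The rise was 3.14-fold (SE 0.173 on the log2 scale, limma adjusted p = 0.00142). Zfp36 encodes tristetraprolin, which marks AU-rich mRNAs for decay. It had 10.38, 10.31 and 10.77 in high-fat livers, against 8.72, 8.90 and 8.74 in HDAC6 knockouts and 8.98, 9.37 and 9.68 in HDAC9 knockouts. Its rise was 2.67-fold (limma adjusted p = 0.00122), again with no overlap.

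Of 54 measured immediate-early and stress genes, 5 rose and none fell, against 0.282% of all genes that rose. The others that rose were Sgk1, a kinase induced by serum and glucocorticoids, by 0.68, and Cebpb, a bZIP transcription factor, by 0.63. The list's median difference was 0.10, against 0.01 over all genes. At an unadjusted p under 0.05, 14 of the 54 were higher and 5 lower. In all, 37 of the 54 were positive and 17 negative. Cebpb lost its call without high-fat replicate 2 or 3 (limma adjusted p up to 0.0959). Of the 5 genes, Zfp36, Dusp1 and Sgk1 were also the called members of a list of 22 glucocorticoid targets and metallothioneins, with no other. The share of all genes that rose was 0.282%. Pde4b, which degrades cyclic AMP, stood outside the list. It had 8.10, 8.34 and 8.41 in high-fat livers, against 6.90 to 7.57 on the 6 knockout arrays, a 1.95-fold rise (limma adjusted p = 0.0123) whose call ended without high-fat replicate 2 or 3. Nab2, a corepressor of EGR factors, rose by 0.64 (limma adjusted p = 0.045), a call kept without HDAC9 knockout replicate 1 and lost without any other array.

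The proximal promoters of Jun, Dusp1, Zfp36 and Cebpb are shown because the genes moved together and such promoters are known to carry sites for signal-driven factors. Sgk1 is not printed, as it has 6 annotated starts and the arrays do not tell which was used. Of its 6 windows, 4 held none of the motifs searched, 1 held TGACG and 1 the E-box CACGTG. Each runs from 250 bases before to 50 after the annotated start, from RefSeq on GRCm38.p6, 5′ to 3′ on the gene's strand: Jun at chr4:95052173-95052472 (minus), Dusp1 at chr17:26508423-26508722 (minus), Zfp36 at chr7:28379179-28379478 (minus) and Cebpb at chr2:167688665-167688964 (plus). Capitals mark matches to the motifs searched.
Jun: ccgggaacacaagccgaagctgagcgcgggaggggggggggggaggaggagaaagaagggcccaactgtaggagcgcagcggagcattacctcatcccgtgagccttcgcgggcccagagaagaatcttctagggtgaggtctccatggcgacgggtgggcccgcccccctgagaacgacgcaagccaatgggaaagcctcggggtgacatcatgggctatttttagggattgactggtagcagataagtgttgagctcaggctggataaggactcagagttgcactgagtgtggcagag
Dusp1: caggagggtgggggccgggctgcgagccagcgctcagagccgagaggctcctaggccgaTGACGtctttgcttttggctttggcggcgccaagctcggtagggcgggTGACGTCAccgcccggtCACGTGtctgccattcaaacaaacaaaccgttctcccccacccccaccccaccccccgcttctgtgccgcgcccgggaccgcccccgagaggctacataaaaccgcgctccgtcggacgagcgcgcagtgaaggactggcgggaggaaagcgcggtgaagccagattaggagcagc
Zfp36: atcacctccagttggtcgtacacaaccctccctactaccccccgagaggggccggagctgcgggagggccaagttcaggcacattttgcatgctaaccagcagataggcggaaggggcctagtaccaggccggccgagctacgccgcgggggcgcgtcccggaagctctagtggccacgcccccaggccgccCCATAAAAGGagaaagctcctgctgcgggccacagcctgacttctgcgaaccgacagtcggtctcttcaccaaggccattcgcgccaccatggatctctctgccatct
Cebpb: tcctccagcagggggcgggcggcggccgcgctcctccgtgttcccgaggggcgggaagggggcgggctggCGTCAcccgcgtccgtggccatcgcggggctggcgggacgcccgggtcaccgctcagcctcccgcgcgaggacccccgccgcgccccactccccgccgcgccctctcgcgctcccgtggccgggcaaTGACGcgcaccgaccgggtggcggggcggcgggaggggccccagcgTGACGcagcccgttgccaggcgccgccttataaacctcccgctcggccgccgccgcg
The motifs were the cyclic AMP response element TGACGTCA, its core TGACG, the AP-1 site TGANTCA, the E-box CACGTG, the D-box TTANGTAA and the CArG box, each searched on both strands. The core lies within the full element and was counted in both. Dusp1 held 1 full element at -143 and an E-box at -126, counted in bases from the start, found in 1.79% and 7.153% of 32841 promoters of the same length. It also held a separate core at -191. Zfp36 held a CArG box at -58, found in 1.629% of promoters. Cebpb held the core 3 times, and 20.815% of promoters held at least 1. In the Jun window none of these letters were found, which says nothing about any factor. The same search covered 19 named genes, so the motifs are not particular to those printed. The core also occurred in Noct, Pde4b and Rdh9, which rose, and in Nfil3, Csad, Spsb4 and Zfp810, which fell. The AP-1 site occurred in Rdh9 and in Orm2, which fell.

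Several genes of foreign compound metabolism fell in high-fat liver. Cyp2b10 had 5.005, 5.69 and 5.32 in high-fat livers, against 8.70, 9.28 and 9.54 in HDAC6 knockouts and 9.24, 8.56 and 9.22 in HDAC9 knockouts. All 3 high-fat arrays lay near the background range and all 6 knockout arrays far above it. The difference was -3.75 (SE 0.209, limma adjusted p = 7.57e-06). With the high-fat level so near background, the size of this difference is less certain than its direction. Its other probe sets gave -3.91 and -2.86. The gene has close relatives in the Cyp2b family, and the probe set used carries a suffix for probes shared between transcripts, so part of its signal may belong to a relative.

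Of 35 measured genes of CAR, PXR and their targets, 5 fell and none rose, against 0.258% of all genes that fell. Their median difference was -0.12, and 21 of the 35 were negative. Ces2a, a carboxylesterase that hydrolyses esters and drugs, had 10.08, 10.21 and 10.62 in high-fat livers, against 11.20 to 11.58 on the 6 knockout arrays, a 2.15-fold fall (SE 0.121 on the log2 scale, limma adjusted p = 0.0015). Gsta2, a glutathione transferase, had 7.60, 7.26 and 8.37 in high-fat livers, against 9.45, 9.50 and 9.14 in HDAC6 knockouts and 8.33, 9.10 and 9.16 in HDAC9 knockouts. High-fat replicate 3 and HDAC9 knockout replicate 1 overlapped narrowly. It fell by 1.37 (limma adjusted p = 0.0235), and the call ended without high-fat replicate 1 or 2, HDAC6 knockout replicate 1 or 2, or HDAC9 knockout replicate 3. Ephx1, the microsomal epoxide hydrolase, fell by 0.80 (limma adjusted p = 0.0454), and Cyp3a25, one of the most abundant transcripts called, by 0.45 (limma adjusted p = 0.045). The call of Ephx1 ended without any 1 of the high-fat arrays, HDAC6 knockout replicate 2 or HDAC9 knockout replicate 3 (limma adjusted p up to 0.216). That of Cyp3a25 ended without high-fat replicate 1 or 2, any 1 of the HDAC6 knockout arrays, or HDAC9 knockout replicate 1 or 3 (limma adjusted p up to 0.205).

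**Figure D2:**
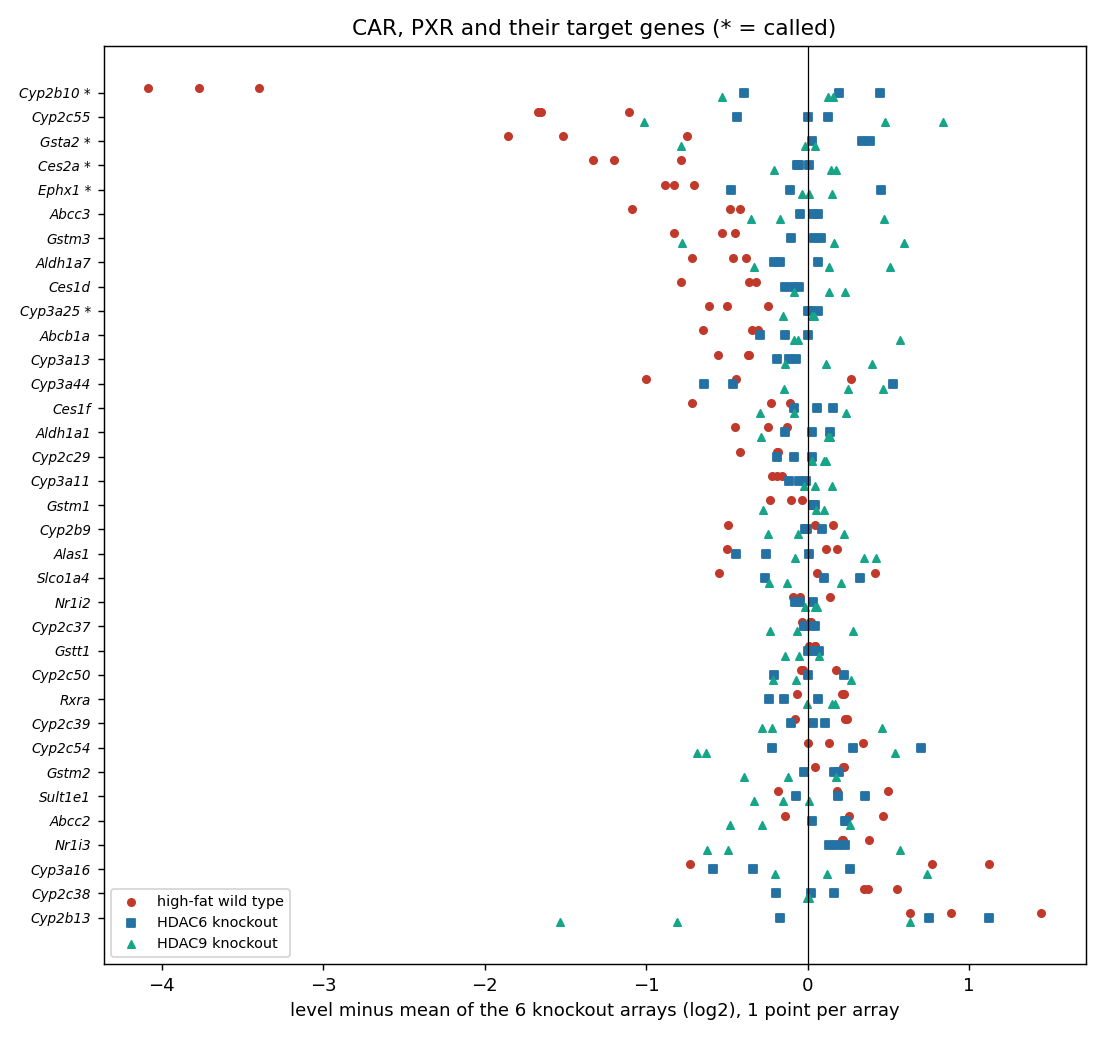
Level of 35 measured genes of the CAR and PXR list on each of the 9 arrays, as the log2 difference from the mean of the 6 knockout arrays, with 1 point per array and an asterisk for called genes. The 3 high-fat arrays of Cyp2b10 lie far to the left of all others, and those of the other 4 called genes also lie left of 0.

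Genes of lipid handling moved in both directions. Cd36, a fatty acid translocase of the plasma membrane, had 8.03, 7.92 and 7.77 in high-fat livers, against 8.83, 9.02 and 9.34 in HDAC6 knockouts and 9.27, 9.46 and 9.41 in HDAC9 knockouts. It was lower on every high-fat array than on any knockout array, by 2.49-fold (SE 0.112 on the log2 scale, limma adjusted p = 0.000303). Its other probe sets gave -1.49 and -1.41. Fabp2, an intracellular fatty acid binding protein best known from the intestine, had 11.78, 11.08 and 10.97 in high-fat livers, against 9.91 to 10.48 on the knockout arrays. It rose 1.99-fold (limma adjusted p = 0.0231), a call that ended without high-fat replicate 1, HDAC6 knockout replicate 2 or HDAC9 knockout replicate 3. These were the only called members of 29 genes of fatty acid uptake and lipid droplets and also of 29 inducible PPAR-alpha targets, whose medians were -0.12 and -0.14. Of all genes 0.541% were called.

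Fads2 and Elovl2, enzymes of polyunsaturated fatty acid synthesis, rose. Fads2, the delta-6 desaturase, had 10.98, 11.23 and 11.22 in high-fat livers, against 10.19 to 10.53 on the knockout arrays, a 1.71-fold rise (SE 0.0961 on the log2 scale, limma adjusted p = 0.00403). Elovl2, an elongase of long polyunsaturated chains, had 11.48, 11.51 and 11.48 in high-fat livers, against 10.77 to 11.27 on the knockout arrays, a rise of 0.48 (limma adjusted p = 0.0245). They were the 2 called members of 27 genes of fatty acid synthesis and its regulators, against 0.282% of all genes that rose. Of the 27, 15 were negative, and the list median was -0.05. Fads1, the delta-5 desaturase, had a difference of 0.29 (limma adjusted p = 0.325). In the fit of all 12 arrays Fads2 was not called (limma adjusted p = 0.155). Bdh1, which makes the ketone body beta-hydroxybutyrate, rose by 0.65, the 1 called member of 28 genes of fatty acid oxidation and ketogenesis. Apoa4, a lipoprotein component, rose by 0.81. The call of Elovl2 ended without any 1 of the high-fat arrays, HDAC6 knockout replicate 2 or HDAC9 knockout replicate 3, and that of Apoa4 without any 1 of the high-fat arrays or HDAC6 knockout replicate 1 or 2. That of Bdh1 ended without high-fat replicate 1 or 2, HDAC6 knockout replicate 1 or 2, or HDAC9 knockout replicate 3. None of 23 genes of cholesterol synthesis and uptake was called.

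Transport, retinoid and eicosanoid genes followed. Slc22a7, the organic anion transporter OAT2 of the hepatocyte membrane, had 9.03, 9.06 and 9.17 in high-fat livers, against 7.74, 7.79 and 7.76 in HDAC6 knockouts and 8.30, 7.70 and 7.81 in HDAC9 knockouts. It rose 2.36-fold (SE 0.12 on the log2 scale, limma adjusted p = 0.000879), with HDAC9 knockout replicate 1 standing above the other 5 knockout arrays. Rdh9, a retinol dehydrogenase, had 10.77, 10.71 and 11.28 in high-fat livers, against 8.66 to 10.21 on the knockout arrays. The groups did not overlap but the knockout arrays were widely spread, and the call of Rdh9 at 2.59-fold (limma adjusted p = 0.0305) ended without any 1 of the high-fat arrays, HDAC6 knockout replicate 2 or HDAC9 knockout replicate 3. Bco1, which cleaves beta-carotene, rose by 0.61, and Hpgd, which inactivates prostaglandins, by 0.55. Hpgd lost its call without any 1 of the 3 high-fat arrays, and Bco1 without high-fat replicate 3. The only Rdh9 probe set and the Hpgd probe set used carry the suffix for shared probes. The other Hpgd probe set gave 0.41, not called (limma adjusted p = 0.2).

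Amino acid genes that were called fell. Csad, the decarboxylase of taurine synthesis, had 8.56, 8.37 and 8.38 in high-fat livers, against 8.97 to 10.18 on the 6 knockout arrays, of which HDAC9 knockout replicate 2 was lowest. It fell 2.54-fold (SE 0.171 on the log2 scale, limma adjusted p = 0.00451) and was the only called gene among 24 of sulfur amino acid and taurine metabolism, whose median was 0.01. Hal, the histidase that begins histidine breakdown, fell by 0.57 and was the only called gene among 33 of the urea cycle and amino acid catabolism. Its call ended without high-fat replicate 1 or 2, any 1 of the HDAC6 knockout arrays, or HDAC9 knockout replicate 3. Slc3a1, a subunit of the cystine transporter, fell by 0.72, a call that ended without any 1 of the high-fat or HDAC6 knockout arrays. Dnase2a, the lysosomal nuclease, had 7.29, 7.12 and 7.28 in high-fat livers, against 8.97, 8.93 and 8.65 in HDAC6 knockouts and 9.01, 7.98 and 8.57 in HDAC9 knockouts. The fall of Dnase2a was 2.74-fold (SE 0.176 on the log2 scale, limma adjusted p = 0.00374), and the groups did not overlap. The only Dnase2a probe set carries a suffix for shared probes, so part of its signal may belong to another transcript.

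Clock output genes were called in both directions. Noct, the rhythmic phosphatase nocturnin, had 8.15, 8.98 and 9.27 in high-fat livers, against 7.34 to 7.97 on the knockout arrays, a rise of 1.11 (SE 0.207, limma adjusted p = 0.0418). Nfil3, a repressor of D-box genes, had 7.66, 7.82 and 7.32 in high-fat livers, against 8.19 to 9.21 on the knockout arrays, a fall of 2.52-fold (limma adjusted p = 0.0163). They were the 2 called genes of 23 measured clock genes, against 0.541% of all genes called. Noct lost its call without high-fat replicate 2 or 3, any 1 of the HDAC6 knockout arrays, or HDAC9 knockout replicate 3, and Nfil3 without high-fat replicate 1 or 3.

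Dbp and Arntl varied widely within groups and were not called. Dbp, a clock output factor that activates D-box genes, had 8.18, 8.20 and 9.71 in high-fat livers, against 5.60, 6.25 and 8.19 in HDAC6 knockouts and 5.34, 6.997 and 4.75 in HDAC9 knockouts (difference 2.51, limma adjusted p = 0.0933). Arntl, which encodes the clock activator BMAL1, had 6.28, 6.15 and 5.51 in high-fat livers, against 6.65 to 7.86 on the knockout arrays (difference -1.39, limma adjusted p = 0.062). Dbp was high and Arntl low on the high-fat arrays. The median difference of the 23 clock genes was 0.24. Jun, Dusp1 and Zfp36 differed between the same arrays, and the part of the clock genes' differences in theirs was not tested.

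Most cell cycle genes had small positive differences. Of 46 measured, 40 were positive and 6 negative, beside 6495 positive of all 12393 genes, and the median was 0.16. Of the 46, 3 were called, all higher, against 0.282% of all genes that rose. The list's mean level was 4.80 to 5.16 on the 9 arrays, near the background 90th percentile of 5.12. By array, its median deviation was 0.0357 to 0.182 on the high-fat arrays and -0.135 to 0.0288 on the knockout arrays. On the chow arrays it was 0.0459 to 0.279, about as high as on the high-fat arrays. Ccnd1, which encodes cyclin D1, had 10.28, 10.20 and 9.91 in high-fat livers, against 8.80 to 9.61 on the knockout arrays, a rise of 0.78 (limma adjusted p = 0.045). Its call ended without any 1 of the high-fat or HDAC6 knockout arrays or HDAC9 knockout replicate 2. Mcm5, a subunit of the replicative helicase, rose by 0.79 and Ccne2, which encodes cyclin E2, by 0.62. Mcm5 and Ccne2 averaged under the 90th percentile of background genes in both groups, and lost their calls without high-fat replicate 2 and without high-fat replicate 1.

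In the lymphocyte and interferon lists 1 gene each was called, where 0.541% of all genes were. Stap1, an adaptor protein of blood cells placed in the lymphocyte list, had 5.79, 5.59 and 5.51 in high-fat livers, against 3.89, 4.08 and 4.99 in HDAC6 knockouts and 4.33, 3.93 and 3.97 in HDAC9 knockouts. It rose 2.69-fold (SE 0.203 on the log2 scale, limma adjusted p = 0.00857), from a knockout level under the 90th percentile of background genes, and its call ended without high-fat replicate 1. It was the 1 called member of 31 T, NK and B lymphocyte markers, of which 26 were positive, with a median of 0.13. The mean level of that list was 4.88 to 5.12 on the high-fat arrays, against 4.68 to 4.96 on the knockout arrays, so the groups overlapped. In whole liver, fewer cells of a type and less RNA per cell cannot be told apart. Of 39 interferon response genes 34 were positive, beside 6495 of all 12393 genes, with a median of 0.18. By array, the median deviation of the interferon list was -0.0384 to 0.205 on the high-fat arrays and -0.281 to 0.157 on the knockout arrays, so the groups overlapped. In that list Gbp3, an interferon-induced GTPase, was called, with a rise of 0.65 (limma adjusted p = 0.045). Its call ended without high-fat replicate 2 or 3, any 1 of the HDAC6 knockout arrays, or HDAC9 knockout replicate 1 or 2. No Kupffer cell and macrophage, neutrophil, endothelial or stellate cell marker was called. With 0.541% of all genes called, lists of 18 to 33 measured genes are too short to read anything into that absence.

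Acute phase genes gave 1 call. Orm2, an acute phase glycoprotein that binds drugs, had 6.33, 6.61 and 6.69 in high-fat livers, against 8.17, 7.51 and 7.65 in HDAC6 knockouts and 8.37, 9.49 and 8.30 in HDAC9 knockouts. The groups did not overlap, and Orm2 fell by 1.70 (SE 0.236, limma adjusted p = 0.00753), a call that ended without high-fat replicate 1. It was the 1 called gene of 33 measured acute phase genes, of which 26 were negative, with a median of -0.13. The list's median was -0.03 against HDAC6 knockouts and -0.21 against HDAC9 knockouts. By array, its median deviation was -0.142 to -0.0439 on the high-fat arrays and -0.083 to 0.345 on the knockout arrays, so the groups overlapped. The highest was HDAC9 knockout replicate 2, the array with high pancreas markers, and the other knockout arrays reached 0.0486. Orm3, a relative of Orm2, had a difference of -0.75 (limma adjusted p = 0.0758). Orm2 and Orm3 are close copies, and probes may be shared between them. Foxa2, a transcription factor that opens chromatin in hepatocytes, fell by 0.51 (limma adjusted p = 0.031) and was the only called gene of 25 hepatocyte identity genes. The call of Foxa2 ended without any 1 of the high-fat or HDAC6 knockout arrays or HDAC9 knockout replicate 3.

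Other called genes belonged to no group above. Gnat1, the rod transducin subunit, rose by 0.98, Gsap, a gamma-secretase activator, by 0.93, and Gnpda1, which returns glucosamine phosphate to glycolysis, by 0.89. Slc25a25, a mitochondrial ATP carrier, rose by 0.85. Zfp810, a zinc finger protein, had 4.96, 4.92 and 4.89 in high-fat livers, against 5.77 to 6.53 on the knockout arrays, a fall of 1.12 (limma adjusted p = 0.00451). Spsb4 also fell by 1.12, and its call ended without any 1 of the high-fat arrays or HDAC6 knockout replicate 1 or 2. Unc13b, known for priming secretory vesicles, fell by 1.10, Mme, the peptidase neprilysin, by 0.88, and Ppbp, a platelet chemokine, by 0.74. The calls of Gnat1, Gsap and Slc25a25 each ended without HDAC6 knockout replicate 3, HDAC9 knockout replicate 3 or high-fat replicate 1. Those of Gnat1 and Gsap also ended without high-fat replicate 3, that of Slc25a25 without high-fat replicate 2, those of Gnat1 and Slc25a25 without HDAC6 knockout replicate 2 and that of Gsap without HDAC6 knockout replicate 1. The call of Ppbp ended without high-fat replicate 3, and that of Mme without HDAC6 knockout replicate 2. In 16 of the 67 called genes the lower group mean was under the 90th percentile of background genes, 5.12, and in 6 it was under their median. Among the 16, Ppbp averaged 3.95 in high-fat livers and 4.69 in knockouts, both under that percentile. Spsb4 averaged 4.45 in high-fat livers and Gnat1 4.80 in knockouts.

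**Figure D3:**
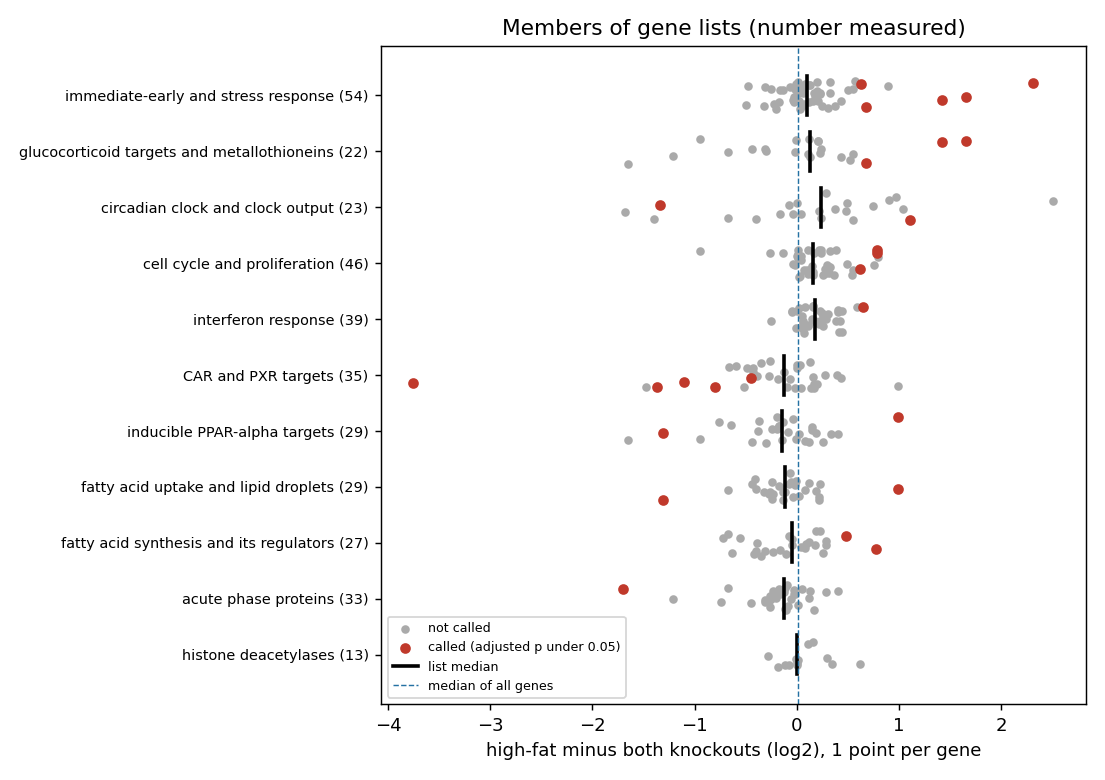
Log2 difference, high-fat minus both knockouts, of the measured genes of 11 lists, with 1 point per gene, called genes in another colour, a bar at the median of each list and a dashed line at the median of all genes. The list medians run from -0.14 for inducible PPAR-alpha targets to 0.24 for clock genes (0.10 for immediate-early genes and -0.12 for CAR and PXR targets). Single called genes such as Jun and Cyp2b10 lie far out.

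The lines were also compared with high-fat liver apart. Both comparisons share the 3 high-fat arrays. Against the HDAC6 knockout 33 genes were called (0.266%), 14 higher (0.113%) and 19 lower (0.153%), and against the HDAC9 knockout 59 (0.476%), 34 higher (0.274%) and 25 lower (0.202%). Of the 67 genes, 22 were called against each line, 6 against the HDAC6 knockout only, 27 against the HDAC9 knockout only and 12 against neither. All 67 had the same sign in both, but they were selected on the mean of these 2 differences. The shared sign was thus largely built in and is no replication between lines. The HDAC6 knockout count was 12 without high-fat replicate 2, 19 without high-fat replicate 1 and 13 without HDAC6 knockout replicate 2. The HDAC9 knockout count was 14, 22 and 11 without high-fat replicate 1, 2 or 3, 37 without HDAC6 knockout replicate 2, and 111 and 29 without HDAC9 knockout replicate 1 or 3.

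Direct comparison of HDAC9 with HDAC6 knockouts called 1 gene (0.00807%), Hdac6 itself, with a difference of 1.70 (SE 0.141, limma adjusted p = 0.000651), and 482 genes (3.89%) had an unadjusted p under 0.05. That count was 5 without HDAC9 knockout replicate 1 and 2 without HDAC6 knockout replicate 3. Cyp2b10 was lower in high-fat liver by 14.3-fold against HDAC6 knockouts and 12.7-fold against HDAC9 knockouts, from fitted values whose high-fat side lay near background. Dusp1 was higher by 4.09-fold against HDAC6 knockouts and 2.40-fold against HDAC9 knockouts, and the lines differed by 0.77 (SE 0.2, unadjusted p = 0.00238 in limma, adjusted p = 1). Orm2 was lower by 2.35-fold against HDAC6 knockouts, which was not called (limma adjusted p = 0.134), and 4.52-fold against HDAC9 knockouts (limma adjusted p = 0.00747). The Orm2 difference between the lines was 0.95 (SE 0.273, limma adjusted p = 1). Dhrs7, a short-chain dehydrogenase, differed by -0.23 against HDAC6 knockouts (limma adjusted p = 0.685) and by -0.75 against HDAC9 knockouts (limma adjusted p = 0.0162), with 0.52 between the lines (limma adjusted p = 0.619).

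**Figure D4:**
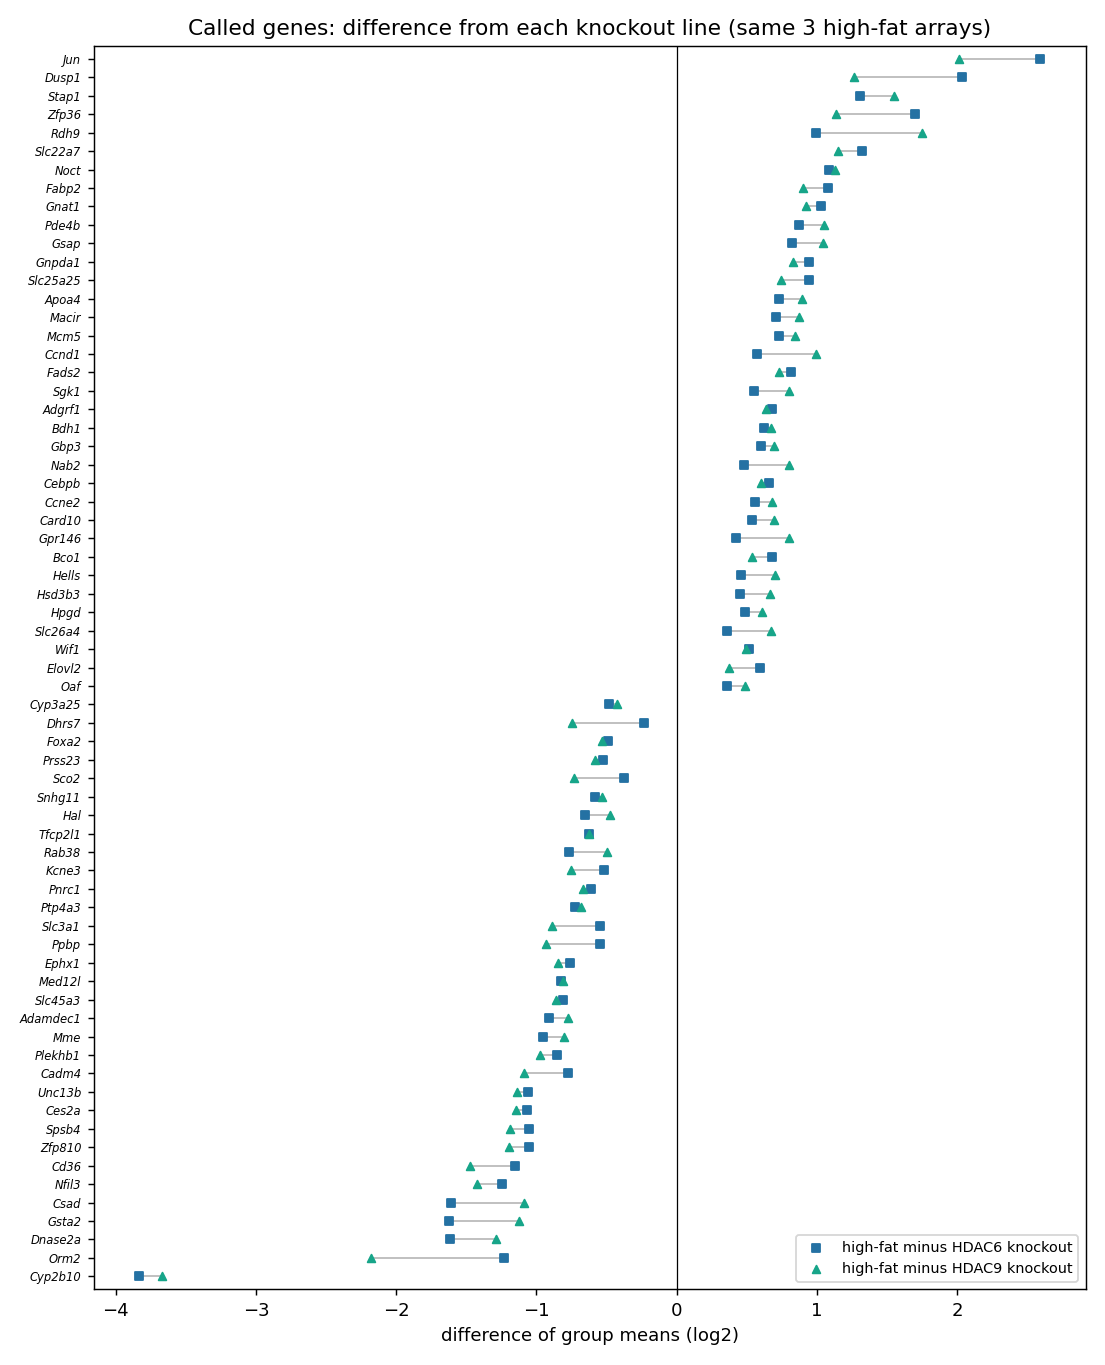
Log2 difference of high-fat liver from the HDAC6 knockout and from the HDAC9 knockout for each of the 67 called genes, with the 2 values of a gene joined by a line. Both values of every gene lie on the same side of 0, which selection on their mean largely builds in, and they share the high-fat arrays. Jun lies at 2.59 and 2.01, and Orm2 at -1.23 and -2.18.

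Chow livers gave a further point of comparison that the main fit had not used. Of the 67 genes, 53 had a chow mean nearer the knockout mean and 14 nearer the high-fat mean, where 42.2% of all genes lay nearer the high-fat mean. The called genes were chosen on the high-fat and knockout arrays, so this count is a description. Cyp2b10 had 8.94, 8.99 and 9.10 on the chow arrays and Jun 5.94, 5.74 and 6.21, both among the knockout values. In the fit of all 12 arrays the high-fat difference from chow was -3.68 for Cyp2b10 and 2.59 for Jun, and the knockout difference from chow was 0.07 and 0.28. Those differences share the chow arrays.

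A smaller set had chow nearer high-fat liver. Cd36 averaged 7.91 ± 0.129 in high-fat livers (SD, n = 3) and 9.22 ± 0.246 in knockouts (SD, n = 6), beside 8.37 ± 0.433 in chow livers (SD, n = 3). Orm2 had 7.11, 7.11 and 7.28 on the chow arrays, above all high-fat arrays and below all knockout arrays. Rab38, a small GTPase of lysosome-related organelles, had 5.61, 5.59 and 5.85 in high-fat livers, against 6.11 to 6.57 in the knockouts, while chow livers had 5.73, 5.59 and 5.69. For Rab38 the knockout difference from chow was 0.64 and the high-fat difference from chow 0.01 (limma adjusted p = 0.04 and 0.989). Its call between high-fat and knockout livers ended without high-fat replicate 1 or 2. Adamdec1, a secreted metalloprotease, and Hpgd were the other genes of smallest p with chow nearer high-fat liver.

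**Figure D5:**
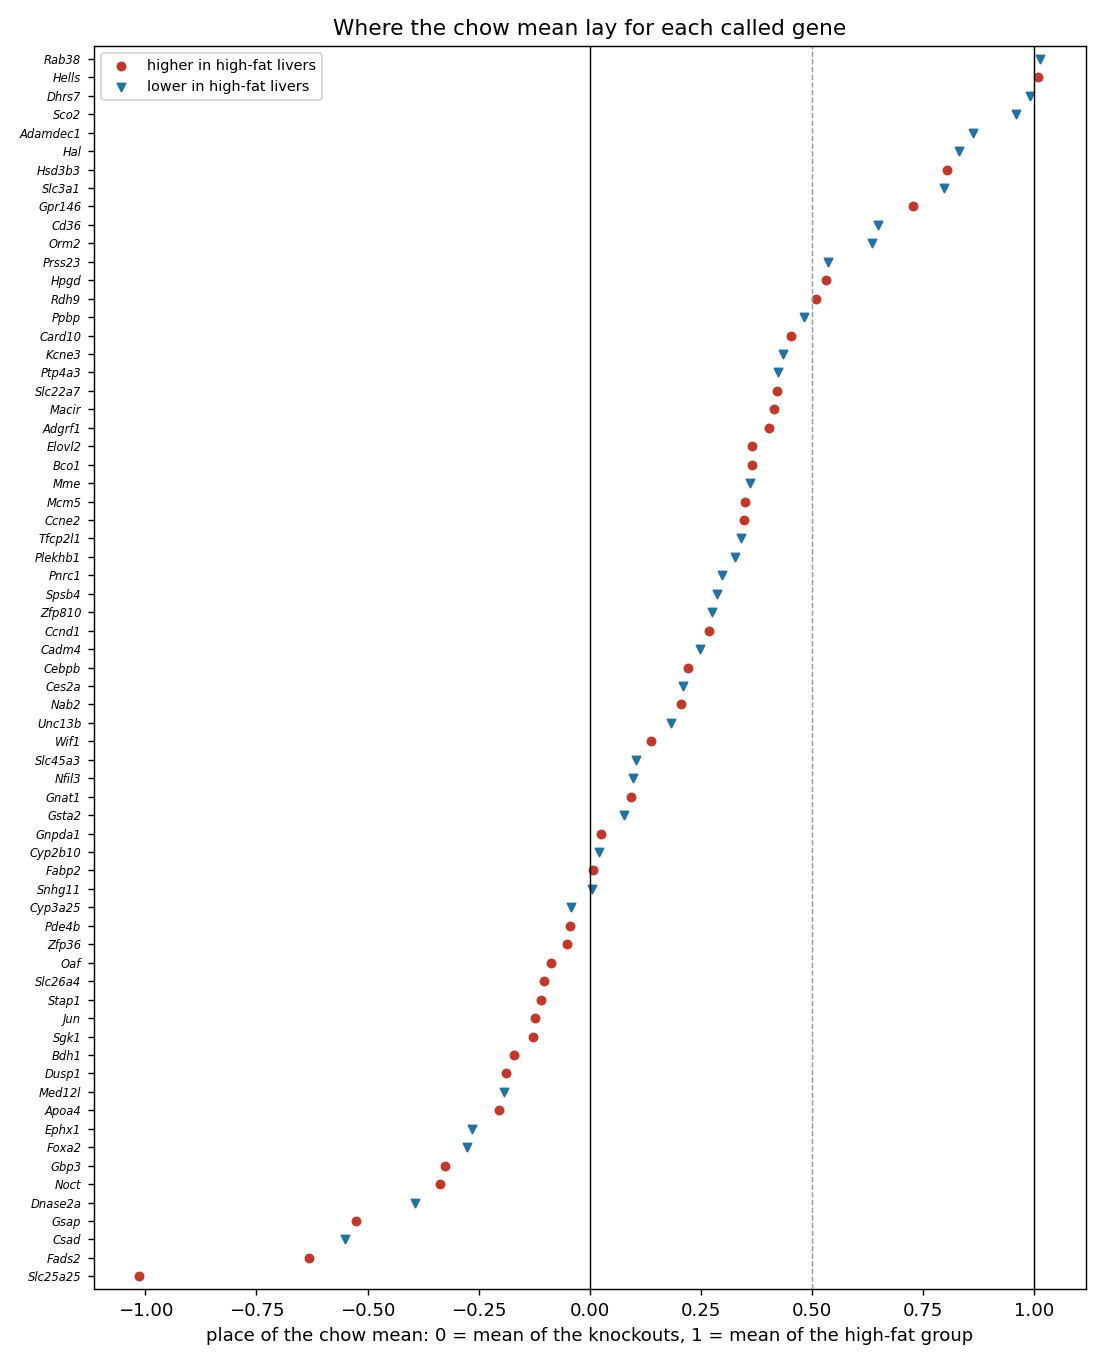
Position of the chow mean of each called gene between the knockout mean, at 0, and the high-fat mean, at 1. Chow lay nearer the knockout mean in 53 of the 67 genes. Cyp2b10 lies at 0.02 and Cd36 at 0.648.

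The histone deacetylases themselves showed no call in the pooled comparison. None of 13 measured genes passed, their median difference was 0.00 to 2 decimals, and the nearest was Hdac6 with 0.62 (limma adjusted p = 0.0515), with its low values on the HDAC6 knockout arrays. Hdac11 had 8.43, 8.42 and 8.44 in high-fat livers, against 7.82 to 8.22 on the knockout arrays (difference 0.34, limma adjusted p = 0.127). None of 16 tubulins and other HDAC6 partners was called.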

How the data were processed

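Whole-liver RNA was measured on Affymetrix Mouse430A arrays. The deposited values are log2 expression per probe set made by RMA (robust multi-array average) per the submitters' processing notes; its software and chip definition are not given in the sources used here. RMA background-corrects, quantile-normalizes and summarizes probes, so a change shared by all genes cannot be seen. No further normalization was applied. Of 22626 probe sets, 20380 had 1 gene symbol in GEO's platform annotation, 691 several and 1555 none; for each of 12393 genes the probe set of highest mean level across the 12 arrays was used.

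A linear model with 3 group means was fitted to the 9 arrays in limma 3.58.1 (R 4.3.3, empirical Bayes with a mean-variance trend), with 11.8 degrees of freedom; the median standard error of the comparison was 0.105. Tests were two-sided, with Benjamini-Hochberg adjustment over all 12393 genes. The number of arrays limits the precision. On simulated data for the high-fat comparison with 12393 genes, 95 of 100 genes changed 2-fold and 71 of 100 changed 1.5-fold were recovered, and 10 unchanged genes were called. The simulated noise was independent for each gene and array, with no effect shared across an array, so these rates may not hold for the real arrays. No pair of arrays was close to identical.

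Genes are named by rule: the 10 largest rises and falls among called genes, up to 4 members of smallest p in each list, the deacetylases, up to 5 called genes by difference between lines, by chow position and by abundance, and the promoter genes; other called genes are named as such. The comparison, members and lists were chosen with earlier results of these data known. Alternatives changed the variance prior, scaling, low-level filter, probe-set choice, thresholds, replicate block and each array in turn.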

Additional observations from a re-analysis of the deposited data

Results flagged for a closer look

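Among the 6 knockout arrays, 32 genes and 10 marker lists were examined for 1 array standing apart by Dixon's test (critical value 0.625), which chance passes in about 1 in 20 groups. Slc22a7 had 8.30 on HDAC9 knockout replicate 1, above the other knockout arrays (gap 0.818 of the range). Gsta2 had 8.33 on the same array, below the others (gap 0.655). Cyp3a25 had 12.51 on HDAC9 knockout replicate 2, below the others (gap 0.709). The exocrine pancreas markers had a median deviation of 3.18 on HDAC9 knockout replicate 2 (gap 0.828), and 103 genes in place of 67 were called without that array. For Hdac6, the high-fat difference was not the same against the 2 lines, by 1.70 in a direct test of HDAC9 against HDAC6 knockouts (limma adjusted p = 0.000651).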

How the results depend on the processing

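No gene that was called changed direction under any of 22 alternative fits. Beside the 67 genes called between high-fat and both knockouts, 43 were called without genes under the 50th percentile of level, 22 at an adjusted p under 0.01 and 2 against a minimum change of 1.5-fold (Cyp2b10 and Jun), and 29 to 115 with 1 array left out. Beside the 33 against the HDAC6 knockout, the counts were 18 without genes under the 50th percentile, 18 with all 12 arrays fitted, 13 at the stricter threshold, 4 against the minimum change and 12 to 46 with 1 array left out. Beside the 59 against the HDAC9 knockout, they were 35, 10, 3 and 11 to 111 for the same filter, threshold, minimum change and left-out arrays. Beside the 1 gene between the lines, 2 were called with a robust variance prior, 3 without probe sets of shared-probe suffix and 1 to 5 with 1 array left out. The cause of these changes was not tested beyond the fewer genes or arrays that the filters and removals leave. Calls of 50 of the 67 genes ended with at least 1 array left out. Quantile normalization and median centring gave 66 and 68 calls. Replicate numbers did not pair the arrays: same-numbered arrays correlated from -0.106 to 0.101 in their deviations, against -0.238 to 0.206 for other numbers. With the number as a replicate block, 87, 23, 62 and 1 genes were called. The exocrine pancreas list had a median of -0.52, and -0.04 without HDAC9 knockout replicate 2. Signal near background limits the 16 called genes whose lower mean was in that range.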

Other observations

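No member was called in the oxidative phosphorylation, proteasome and pericentral lists, and their arrays overlapped between groups. Of 66 oxidative phosphorylation subunits 54 had positive and 12 negative differences, with a median difference of 0.07. Of all 12393 genes 6495 were positive. High-fat replicate 1 stood alone, with a median deviation of 0.175 from the mean over the arrays, against -0.0142 and -0.0182 on the other high-fat arrays and -0.0471 to 0.00463 on the knockout arrays. Of 37 proteasome subunits 29 were positive, with a median of 0.05, and again high-fat replicate 1 was highest at 0.155, while the other high-fat arrays, at -0.0326 and 0.0449, lay within the knockout range of -0.156 to 0.0832. Of 25 pericentral liver genes 19 were positive, with a median of 0.18. Their median deviation was 0.045 to 0.199 on the high-fat arrays and -0.25 to 0.148 on the knockout arrays, and the member of smallest p was Lect2, a hepatokine, at 0.91 (limma adjusted p = 0.112). Pdk4, a kinase that restrains pyruvate use, had 6.22, 6.52 and 5.79 in high-fat livers, against 6.54 to 8.81 on the knockout arrays (difference -1.65, limma adjusted p = 0.0665). Cyp4a14, a fatty acid hydroxylase, had a difference of -0.95 (limma adjusted p = 0.0938).

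Probe sets left out of the gene test were fitted apart. Of 691 with several symbols, 2 were higher and 0 lower in high-fat liver at a limma adjusted p under 0.05, and of 1555 with no symbol, 4 were higher and 1 lower. The 19 called genes with more than 1 probe set had 23 further probe sets, of which 22 had the same sign and 1, of Tfcp2l1, the opposite. Only 10 of the 23 passed an adjusted p of 0.05 over probe sets, and further sets of Ptp4a3, Pnrc1 and Tfcp2l1 lay near 0 at -0.04, -0.10 and -0.15. Those sets averaged 2.74, 2.26 and 2.78 over the 9 arrays, and the Tfcp2l1 set of opposite sign 3.06. All lay under the background median of 3.55, so they could hardly show a difference in either direction.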
